A study of Mus musculus with 40 samples.

Results

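Methylation of liver DNA was compared between adult mice born from high fat (HF) fed dams and mice born from low fat (LF) fed dams, all of which were themselves fed LF after weaning. The comparison held 20 of the 40 mice of the study, 10 in each maternal group, taken by the maternal and adult diets that the labels give. All were male C57BL/6 mice (C57BL/6J in the study's methods) killed at 9 weeks of age. The dams ate the HF or the LF diet before and through pregnancy and until weaning. The other 20 mice, 10 per maternal diet, were weaned onto HF and are used here only to ask whether the maternal difference was the same on the other adult diet. Per the study's methods the males of each breeding cage were divided between the adult diets at weaning, so LF-fed and HF-fed mice can be littermates. The labels do not give the litter of a mouse, so p-values measure the spread between mice, and the share of it due to litters cannot be told apart.

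DNA methylation is the addition of a methyl group to cytosine, in mammals mostly where a cytosine is followed by a guanine (CpG). Dense clusters of CpGs at gene starts are mostly unmethylated, while CpGs in gene bodies, between genes and in repeats are mostly methylated, and at imprinted genes the copy inherited from 1 parent is methylated and the other is not. Maternal diet has been studied as a source of lasting marks in liver because methylation patterns are copied at cell division.

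Methylation was read by reduced representation bisulfite sequencing (RRBS), in which DNA is cut with MspI at CCGG so that reads concentrate in CpG-rich sequence. The methylation level of a CpG in a mouse was its methylated reads as a percent of all its reads, and 262317 CpGs with a level in at least 36 of the 40 mice were kept. The cytosines on the 2 strands of a CpG are listed separately and were counted as separate CpGs. In mice born from HF fed dams the libraries held 6717178 to 15680735 reads at CpGs (median 9922782.5), and in mice born from LF fed dams 4272932 to 17717689 (median 7682335). The groups overlapped in depth, with a two-sided permutation p of 0.0779. Missing levels were more common in mice born from LF fed dams, with a median of 3.87% of the kept CpGs against 0.637%. As a check of the tissue, the tested promoters of hepatocyte markers (3 of 20 genes) had levels from 2.60 to 3.72%. Promoters of endothelial, stellate and bile duct markers (4 of 20 tested) had a median of 3.01%, so these promoters did not separate hepatocytes from these cells.

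No CpG differed between the maternal groups at a false discovery rate (FDR) below 5%. Of 240742 CpGs with a spread between mice, 0 were called (0.0%) by Student's t-test with Benjamini-Hochberg adjustment, and 0 were called by Welch's test and a quasi-binomial model over the same CpGs and by limma over all 262317. The exact Wilcoxon test also called 0, but its smallest possible p of 1.08e-05 is too large for a single CpG to pass the adjustment. At an unadjusted p below 0.05, 5759 CpGs were higher in mice born from HF fed dams (2.39%) and 3852 were lower (1.6%). The same test called 0 of 30682 bins of 1 kb (0.0%), with 1009 bins higher (3.29%) and 614 lower (2.0%) at unadjusted p below 0.05. It called 0 of 9286 gene promoters (0.0%), with 245 higher (2.64%) and 219 lower (2.36%). The values of the 2 groups were fully apart at 1 of 104811 CpGs with all 20 levels present and a spread between mice (0.000954%), at 0 of 23420 bins (0.0%) and at 0 of 7528 promoters (0.0%). The 104811 include CpGs at 0% in all but 1 mouse, whose groups cannot be apart.

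The width of the intervals shows what size of difference these 20 mice could have hidden. The 95% interval of the difference lay within 10 percentage points of 0 at 71.4% of CpGs, 90.6% of bins and 98.7% of promoters. It lay within 5 points at 37.2% of CpGs, 62.1% of bins and 93.7% of promoters, and within 2 points at 70.1% of promoters. The shares of CpGs depended on their mean level. Among CpGs of 10 to 90% the interval lay within 10 points at 22.3% and within 5 points at 0.245%. It lay within 10 points at 95.7% of CpGs below 10% and at 87.2% of those of 90% and over. The middle 95% of the estimated differences ran from −6.39 to 7.38 points for CpGs, from −4.08 to 5.03 for bins and from −1.69 to 1.81 for promoters.

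Although no site was called, the CpGs with small p-values did not divide evenly by direction. Of all CpGs at unadjusted p below 0.05, 59.9% were higher in mice born from HF fed dams. The share was 54.9% among CpGs with a mean level below 10%, 64.9% among those between 10 and 90% and 57.4% among those of 90% and over. By place in the genome it was 55.2% in promoters, 55.7% in exons, 60.2% in introns and 65.4% between genes. On each of the 19 autosomes more of these CpGs were higher than lower, from 55.0% on chromosome 9 to 69.8% on chromosome 17. A stretch of ribosomal DNA on chromosome 17, described at the end, held 165 of the higher CpGs and 0 of the lower ones, and the rest of that chromosome held 285 higher and 195 lower (59.4% higher). On chromosome X, with 223 CpGs tested, 4 were higher and 11 lower. Neighbouring CpGs and CpGs of 1 mouse are not independent, so these shares are descriptions.

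The direction of the CpG counts changed with read depth as a covariate and in a run of limma. With the log10 read depth of the mouse as a covariate the counts were 5071 higher and 5222 lower (49.3% higher), and with limma on log2 read ratios they were 6625 higher and 9469 lower (41.2% higher). The limma ratios had 0.5 reads added to each count, so at 0 methylated reads they depend on depth. The limma run also took in 21575 CpGs without a spread between the LF-fed mice and used another model of the variance. Which of these changes turned the direction was not tested. Among 2420 CpGs with 20 or more reads in at least 36 mice, 254 were higher and 39 lower (86.7% higher), and outside the ribosomal stretch 92 of 2027 were higher and 39 lower (70.2% higher). With depth as a covariate the 1 kb bins remained mostly higher, at 799 higher and 511 lower (61.0% higher, beside 62.2% without it).

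In mice fed HF after weaning, the unadjusted counts of the same maternal comparison ran in the opposite direction. Of 239809 CpGs, 0 were called (0.0%), and 3647 (1.52%) were higher and 5262 (2.19%) lower in mice born from HF fed dams at unadjusted p below 0.05. The share that was higher was 40.9% over all CpGs and 36.9% between levels of 10 and 90%, and fewer were higher than lower on each of the 19 autosomes, from 33.6% on chromosome 10 to 46.8% on chromosome 1. An interaction term, which tests whether the maternal difference itself differed between the adult diets, called 0 of 254765 CpGs (0.0%), with 3978 higher (1.56%) and 6661 lower (2.61%) in the HF-fed mice at unadjusted p below 0.05. It also called 0 of 30687 bins (0.0%) and 0 of 9287 promoters (0.0%), and the maternal comparison in HF-fed mice called 0 of 30682 bins (0.0%) and 0 of 9284 promoters (0.0%).

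**Figure D1:**
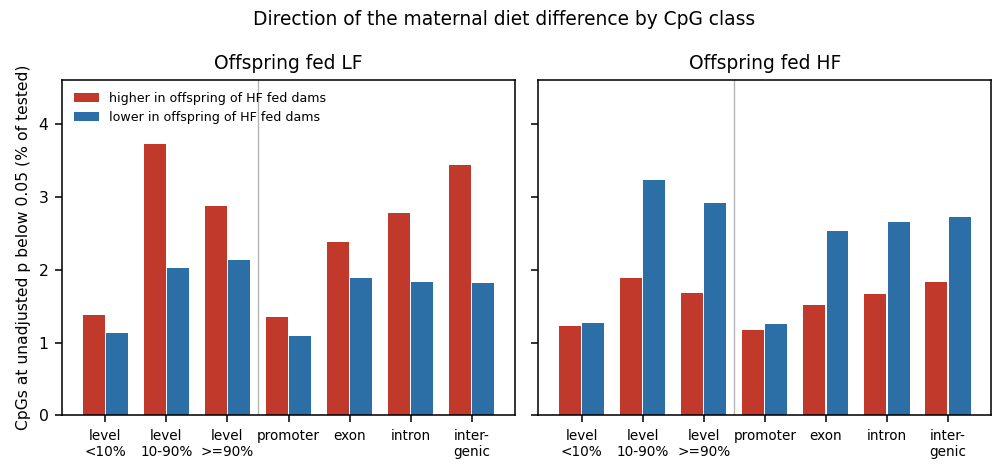
Bars give the percent of tested CpGs at unadjusted p below 0.05 that were higher (red) or lower (blue) in mice born from HF fed dams, by mean methylation level and by place in the genome, for offspring fed LF and offspring fed HF. At levels of 10 to 90%, 2760 CpGs were higher and 1495 lower in LF-fed mice, and 1398 were higher and 2391 lower in HF-fed mice.

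The mean level per mouse over a fixed set of CpGs gave 1 value per animal and could be tested over animals. Over the 34368 CpGs covered in all 40 mice, the mean level of mice born from HF fed dams was 39.40% in the lowest, 39.69% in the median and 39.97% in the highest mouse. In mice born from LF fed dams these were 39.36%, 39.41% and 39.74%. The ranges overlapped, and the means of 39.68% ± 0.164 and 39.47% ± 0.133 (SD, n = 10 each) differed by 0.204 points (two-sided permutation p = 0.00762, 0.0305 after adjustment over 8 sets of CpGs). Of 8 alternative ways to take or test this mean, 4 kept its sign at permutation p below 0.05 and 2 reversed its sign.

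CpGs between genes had the widest gap of the 4 genomic classes. Over 8563 such CpGs the level ran from 59.8 to 61.0% (median 60.5%) in mice born from HF fed dams and from 59.6 to 60.5% (median 59.9%) in mice born from LF fed dams. The difference was 0.506 points (permutation p = 0.00183, adjusted 0.0146). Exonic CpGs were 0.157 points higher (adjusted permutation p = 0.0418) and intronic CpGs 0.235 points (adjusted 0.0663), while promoter CpGs were at 6.29% against 6.33%, a difference of −0.0390 points (adjusted 0.0705).

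By level, CpGs between 10 and 90% had means of 61.3% ± 0.400 and 60.8% ± 0.348, a difference of 0.472 points (permutation p = 0.0133, adjusted 0.0354). CpGs below 10% were at 2.45% and 2.46% (permutation p = 0.771). CpGs of 90% and over were at 94.8% and 94.5% (adjusted permutation p = 0.113). The sets overlap one another, so the 8 tests are not independent.

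**Figure D2:**
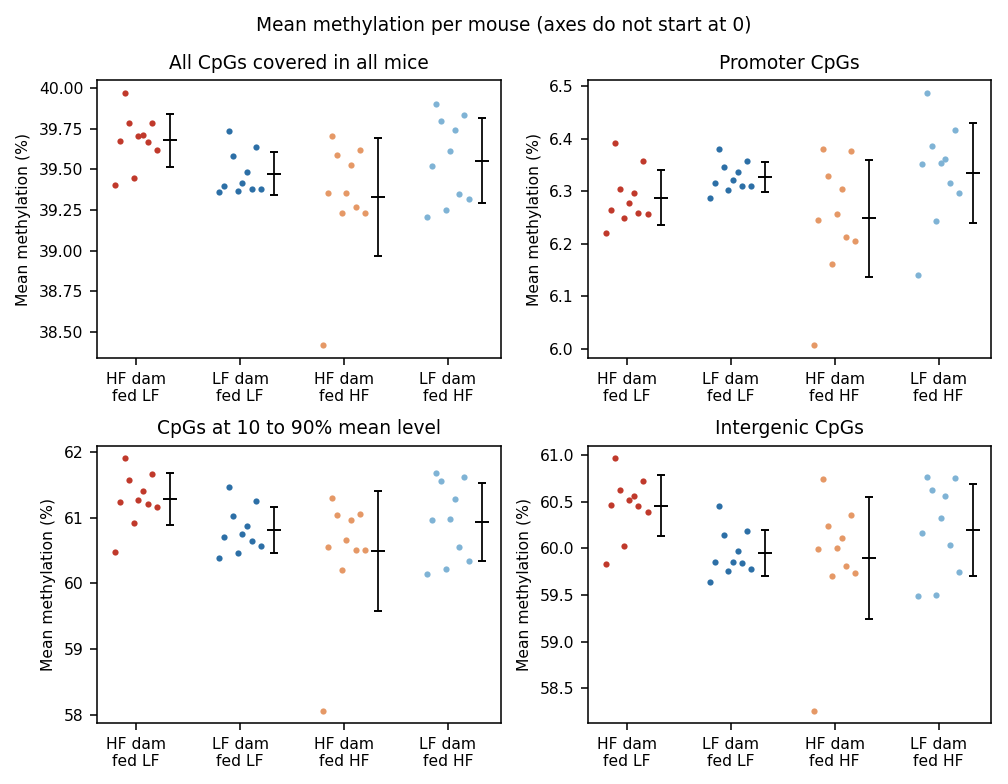
Mean methylation per mouse in percent over CpGs covered in all 40 mice, by maternal and adult diet, for all CpGs, promoter CpGs, CpGs at levels of 10 to 90% and intergenic CpGs. Points are mice, bars are the mean and SD, and axes do not start at 0; in LF-fed mice the group born from HF fed dams lies 0.204 points higher over all CpGs with overlapping ranges, and 1 HF-fed mouse lies low at 38.4%.

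Among mice fed HF, the mean over all 34368 CpGs was 39.33% ± 0.363 in mice born from HF fed dams and 39.55% ± 0.260 in mice born from LF fed dams, a difference of −0.224 points (permutation p = 0.125). The maternal difference differed between the adult diets by −0.428 points (permutation p of the interaction 0.00511, adjusted 0.0204). This call was lost when each mouse was averaged over its own CpGs (0.0169 points, permutation p = 0.973) and with the reads of the 34368 CpGs pooled (−1.16 points, permutation p = 0.528). The interaction was −0.807 points between genes (adjusted permutation p = 0.0204), −0.917 at levels of 10 to 90%, −0.386 in exons and −0.543 in introns (each 0.0213).

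The sign of the difference in LF-fed mice changed with how a mouse was averaged, though no reversed value passed its test. When each mouse was averaged over all the CpGs it had, the means were 33.9% and 34.2%, a difference of −0.272 points (permutation p = 0.424). All methylated reads over all reads at the 34368 shared CpGs gave 37.3% and 38.1%, a difference of −0.807 points (permutation p = 0.432). These pooled reads include the ribosomal DNA described at the end, with 399 CpGs at a median of 1400 reads. With log10 read depth as a covariate, the difference over the shared CpGs was 0.201 points (permutation p = 0.0138).

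Pik3r1 held the CpG with the smallest p-value and the single CpG at which the groups were apart. Pik3r1 encodes the p85 alpha regulatory subunit of phosphoinositide 3-kinase, which joins the insulin receptor substrates to the lipid kinase. The gene lies on the minus strand of chromosome 13 at 102450716 to 102538172 (mm9), and the CpG at 102537758 is in an intron 414 bp downstream of the start. The plus strand of its surroundings at chr13:102537718-102537868 is shown because 5 other measured CpGs lie within 100 bp of it. Capitals mark measured CpGs here and in all sequences that follow, and the first pair is the CpG in question.
Pik3r1: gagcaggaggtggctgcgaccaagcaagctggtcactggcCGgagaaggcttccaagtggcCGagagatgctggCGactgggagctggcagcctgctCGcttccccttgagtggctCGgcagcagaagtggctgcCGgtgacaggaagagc

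In mice born from HF fed dams this CpG had a level of 0% in the lowest, 1.19% in the median and 5.13% in the highest mouse. In mice born from LF fed dams the level was 5.66%, 7.69% and 12.0%. Methylated reads were found in 5 of 10 mice born from HF fed dams, 6 of 355 reads in all, and in each of the 10 mice born from LF fed dams, 23 of 284 reads. The means of 1.53% ± 1.79 and 8.37% ± 2.14 (SD, n = 10 each) differed by −6.84 points (95% interval −8.70 to −4.99, Student's t-test p = 3.745e-07, FDR 0.0902, permutation p = 3e-05).

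The CpGs beside it did not share the difference. Those 21, 34, 58 and 77 bp away differed by 0.238, 0.476, 0.780 and 0.588 points, and that 96 bp away by −3.13 points (p = 0.307). Over the 19 measured CpGs of the Pik3r1 promoter the difference was −0.296 points (p = 0.353). In mice fed HF the levels of the CpG were 7.68% ± 7.2 and 6.06% ± 5.4, 1.61 points higher in mice born from HF fed dams (p = 0.578), and the interaction had an FDR of 0.868. The FDR fell under 5% without replicate 7 of the mice born from HF fed dams (0.0264). It also did with CpGs covered in all 40 mice alone (0.0122) and with CpGs of mean level 5 to 95% alone (0.0466). In both of these sets the p-value was the same and only fewer CpGs were tested. The FDR was 0.111 with Welch's test, 0.207 with limma, 0.479 with depth as a covariate, 0.806 with the quasi-binomial model, 0.831 with mice of consecutive numbers averaged, 0.858 with the mouse mean as a covariate and 0.926 in a linear model over all 4 groups.

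Among CpGs with a level in all 20 mice, the 7 with the next smallest p-values each had an FDR of 0.818. They lay at or near Bag3, Popdc2, Ajap1, Gtf2f1, Esrrg, Sestd1 and Hk3. The sequences of 6 of them are shown because the levels of the capital pairs can then be read against their distance, from plus strand mm9 at chr7:135649499-135649579 (Bag3, the third pair), chr16:38374270-38374340 (Popdc2, the first), chr4:152751714-152751844 (Ajap1, the second), chr1:189432547-189432627 (Esrrg, the second), chr2:77118080-77118150 (Sestd1, the first) and chr13:55109428-55109538 (Hk3, the second).
Bag3: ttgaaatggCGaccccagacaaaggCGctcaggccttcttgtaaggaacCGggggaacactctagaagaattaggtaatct
Popdc2: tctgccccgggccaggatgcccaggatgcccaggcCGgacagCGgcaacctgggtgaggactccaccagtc
Ajap1: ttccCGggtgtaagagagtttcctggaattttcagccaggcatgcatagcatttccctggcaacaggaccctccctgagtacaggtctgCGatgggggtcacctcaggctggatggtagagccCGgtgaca
Esrrg: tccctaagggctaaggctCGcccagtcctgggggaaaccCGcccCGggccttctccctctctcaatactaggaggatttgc
Sestd1: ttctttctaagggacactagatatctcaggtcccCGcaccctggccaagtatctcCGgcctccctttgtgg
Hk3: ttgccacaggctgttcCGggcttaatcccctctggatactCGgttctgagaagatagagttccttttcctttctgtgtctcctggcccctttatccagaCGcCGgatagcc

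Bag3 encodes a co-chaperone of the heat shock proteins, and its CpG at 135649549 on chromosome 7 lies between genes, 17548 bp upstream of the gene start. The level was 90.9% in the lowest and 100% in the median and highest mouse born from HF fed dams, and 85.7%, 90.9% and 94.7% in mice born from LF fed dams. It was 100% in 8 of 10 mice of the first group and in 0 of 10 of the second. The difference was 7.39 points (95% interval 4.70 to 10.1, p = 1.83e-05), and the CpGs 24 and 40 bp away differed by −1.32 and 0.653 points.

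Popdc2 encodes a Popeye domain membrane protein of heart and muscle, and its CpG at 38374305 on chromosome 16 is in a coding exon. Levels of 79.2%, 91.7% and 95.5% (lowest, median, highest) in mice born from HF fed dams stood against 95.2%, 100% and 100% in mice born from LF fed dams, a difference of −9.33 points (95% interval −12.9 to −5.75, p = 3.43e-05). The CpG 7 bp away was at 91.3% and 96.7%, a difference of −5.41 points (p = 0.0523).

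Ajap1, which encodes an adherens junction associated membrane protein, held an intronic CpG at 152751804 on chromosome 4. Its level was 40%, 57.5% and 66.7% in mice born from HF fed dams and 60.9%, 75.6% and 86.7% in mice born from LF fed dams, a difference of −19.7 points (95% interval −27.3 to −12.1, p = 3.57e-05). Groups overlapped here, 6 of 10 mice of the first group lying below the lowest of the second. Its measured neighbours differed by 0.276 and 7.97 points, in the other direction.

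Sestd1, a SEC14 and spectrin domain protein, held an intronic CpG at 77118115 on chromosome 2 at 13.8%, 22.4% and 31.0% in mice born from HF fed dams and 29.3%, 40.6% and 54.5% in mice born from LF fed dams. The difference was −18.0 points (95% interval −25.7 to −10.3, p = 0.000113), while the CpG 21 bp away was at 14.3% and 9.50%, 4.75 points higher (p = 0.239). In HF-fed mice the Sestd1 CpG differed by 1.25 points.

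Hk3 encodes hexokinase 3, an enzyme that phosphorylates glucose, and its intronic CpG at 55109468 on chromosome 13 had the largest difference among the 8 CpGs with the smallest p-values. The level was 45.5%, 50% and 68.8% in mice born from HF fed dams and 12%, 31.5% and 51.2% in mice born from LF fed dams, 22.1 points higher (95% interval 12.6 to 31.6, p = 0.000122). The CpG 24 bp away was at 88.0% and 80.2%, 7.72 points higher (p = 0.0712), and those 60 and 63 bp away differed by −0.403 and 0.977 points.

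Esrrg and Gtf2f1 were at the ends of the scale. Esrrg encodes an orphan nuclear receptor of oxidative metabolism, and its CpG at 189432587 on chromosome 1 lies 83 bp upstream of the start. It was at 0%, 3.45% and 6.25% in mice born from HF fed dams and listed at 0% in each mouse born from LF fed dams, so that 8 of 262 reads stood against 0 of 214 reads, which allows a level of up to 1.40% counting 3 reads. The difference was 3.26 points (95% interval 1.89 to 4.63, p = 9.43e-05), and the CpGs 21 and 5 bp away differed by 3.39 (p = 0.0478) and −2.47 points (p = 0.293). Gtf2f1 encodes the large subunit of the general transcription factor TFIIF, and the CpG 1339 bp upstream of its start, at 57152062 on chromosome 17, was at 94.4%, 96.2% and 100% against 78.6%, 90.3% and 94.4%, 8.10 points higher (p = 7e-05).

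**Figure D3:**
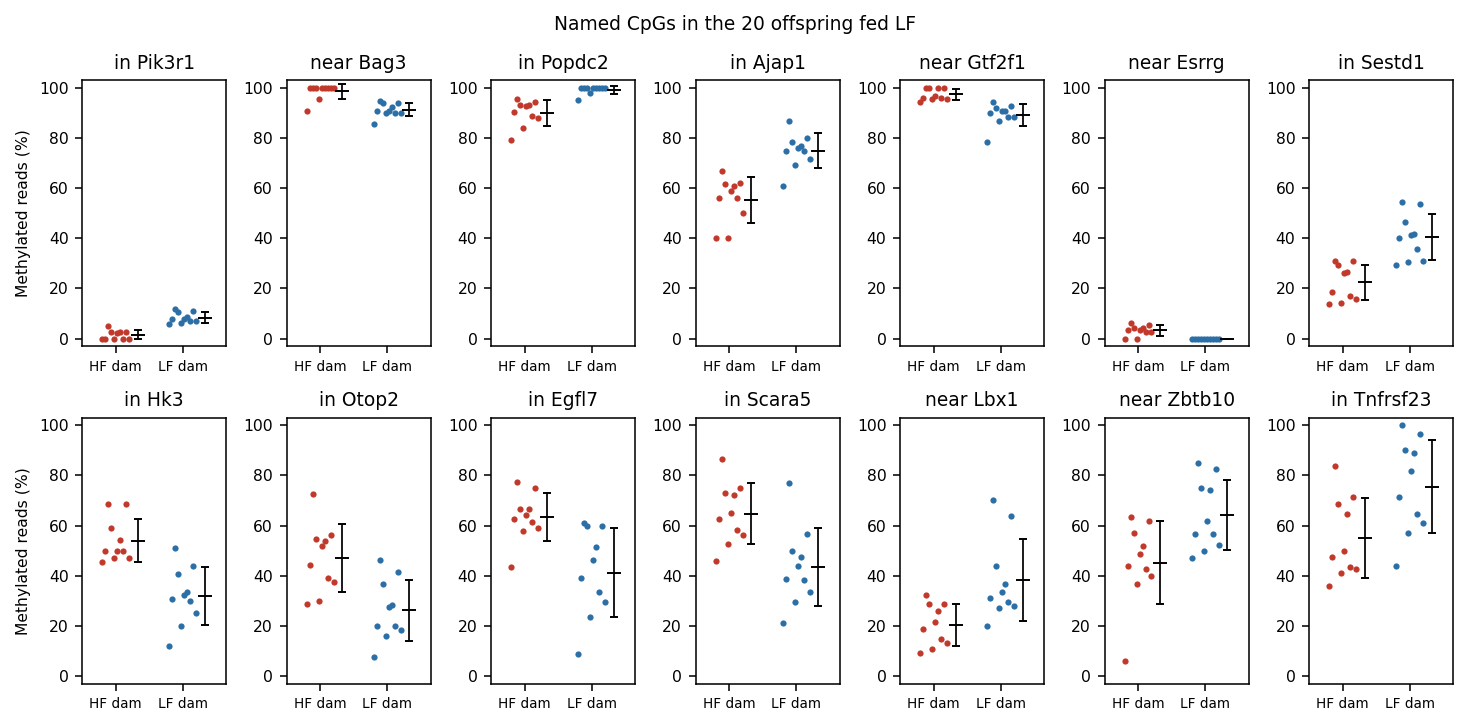
Methylation level in percent of the 14 named CpGs in each of the 20 mice fed LF, by maternal diet; points are mice and bars are the mean and SD. The groups are fully apart at the Pik3r1 CpG, where mice born from HF fed dams reach 5.13% and mice born from LF fed dams start at 5.66%, and they overlap at the others.

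The CpGs with the largest differences among those at unadjusted p below 0.05 with full data had wide spreads between mice. Beside Hk3, the largest higher levels were at Egfl7, Scara5 and Otop2, and beside Ajap1, the largest lower levels were at Tnfrsf23, Zbtb10 and Lbx1, each with an FDR of 0.818. Egfl7 encodes a secreted protein of endothelial cells, and Scara5 a scavenger receptor that binds ferritin. Both are shown, at chr2:26444832-26444922 (the first pair) and chr14:66378363-66378533 (the fourth pair), because their neighbouring CpGs went the same way.
Egfl7: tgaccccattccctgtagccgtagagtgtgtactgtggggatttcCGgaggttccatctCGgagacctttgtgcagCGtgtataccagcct
Scara5: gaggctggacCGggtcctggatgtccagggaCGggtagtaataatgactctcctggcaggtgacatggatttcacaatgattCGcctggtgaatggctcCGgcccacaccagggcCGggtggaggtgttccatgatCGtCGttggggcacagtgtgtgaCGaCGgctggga

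The Scara5 CpG at 66378463 on chromosome 14, in a coding exon, was at 45.9%, 63.8% and 86.7% in mice born from HF fed dams and 21.2%, 41.2% and 76.9% in mice born from LF fed dams, 21.2 points higher (95% interval 8.09 to 34.4, p = 0.00323). All 8 measured CpGs within 100 bp were higher too, by 10.7 points on average, and 3 of them were at p below 0.05. The largest of these 3 was the CpG 36 bp away, at 79.3% and 66.0% (p = 0.00754). Reads that cover several of these CpGs are shared, so the CpGs are not independent. In HF-fed mice the Scara5 CpG was 5.75 points higher (p = 0.386).

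The Egfl7 CpG at 26444877 on chromosome 2, also in a coding exon, was at 43.5%, 63.4% and 77.4% against 8.70%, 42.6% and 60.9%, 22.2 points higher (p = 0.0025). The CpGs 14 and 31 bp away were 8.99 and 5.31 points higher (p = 0.118 and 0.255). The CpG at 115183107 on chromosome 11, in Otop2, a gene for a proton channel, was at 28.6%, 48.1% and 72.7% against 7.69%, 23.8% and 46.2%, 20.7 points higher (p = 0.00214).

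Among the lower ones, Tnfrsf23, a decoy receptor of the TRAIL ligand, had the largest difference. Its coding exon CpG at 150856761 on chromosome 7 was at 35.7%, 48.7% and 83.9% against 44%, 76.6% and 100%, a difference of −20.6 points (p = 0.0162). The CpG at 9159118 on chromosome 3, 91484 bp upstream of the zinc finger gene Zbtb10, differed by −18.9 points (p = 0.0129), and that at 45283399 on chromosome 19, 23779 bp from the homeobox gene Lbx1, by −18.0 points (p = 0.00596). Zbtb10 held 1 mouse born from an HF fed dam at 5.88%, with the next at 36.6%, and with the mouse mean as a covariate its difference was −12.3 points (p = 0.153).

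The HF-fed mice, which share no animal but can share litters with the LF-fed mice, gave another measurement of these sites. Of the 14 CpGs named, 4 had the same sign of the maternal difference in HF-fed mice, and 0 of the 8 with the smallest p-values did. None of the 14 was at p below 0.05 there, and the interaction had an FDR of 0.868 at each. Over the genome, 4700 of 9559 CpGs at p below 0.05 in LF-fed mice (49.2%) had the same sign in HF-fed mice, beside 49.7% of all 225580 CpGs compared. At p below 0.05 on both diets, 217 CpGs had the same sign and 225 the opposite one. For bins the share was 48.9% of 1623, beside 49.7% of all bins, and for promoters 50.6% of 464, beside 50.3% of all.

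Bins of 1 kb averaged 3 or more CpGs, and the smallest p-values lay near Nr1d1, in Dnmt3b, in Ptprj, upstream of 5730559C18Rik, in Celf5 and near Cdh5, each with an FDR of 0.899. Stretches of 4 of these bins are shown because their CpGs can be compared with one another. They are from plus strand mm9 at chr11:98644464-98644685 (Nr1d1), chr2:153502552-153502643 (Dnmt3b), chr8:106623649-106623780 (Cdh5) and chr2:90420093-90420312 (Ptprj, intron only). The Ptprj stretch holds 7 of the 24 measured CpGs of its bin, without the 1 at p below 0.05, at 90420434.
Nr1d1: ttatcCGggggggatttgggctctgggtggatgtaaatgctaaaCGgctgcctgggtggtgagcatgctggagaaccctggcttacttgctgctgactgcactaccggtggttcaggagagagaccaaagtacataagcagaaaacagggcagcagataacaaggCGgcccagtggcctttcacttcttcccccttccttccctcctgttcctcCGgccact
Dnmt3b: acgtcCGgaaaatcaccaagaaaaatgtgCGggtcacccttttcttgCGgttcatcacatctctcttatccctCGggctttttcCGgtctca
Cdh5: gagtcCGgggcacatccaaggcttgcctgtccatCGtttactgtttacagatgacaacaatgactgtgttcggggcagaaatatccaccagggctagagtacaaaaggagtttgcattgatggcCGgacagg
Ptprj: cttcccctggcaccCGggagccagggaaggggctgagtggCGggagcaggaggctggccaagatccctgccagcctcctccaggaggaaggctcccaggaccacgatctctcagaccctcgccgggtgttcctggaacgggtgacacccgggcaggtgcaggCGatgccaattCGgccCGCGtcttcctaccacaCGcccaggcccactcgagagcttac

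Nr1d1 encodes REV-ERB alpha, a repressor of the circadian clock and of liver lipid genes, and the CpGs of the bin at chr11:98644001-98645000 are centred 7922 bp upstream of its start. Its mean over 4 CpGs was 2.02%, 4.37% and 7.55% in mice born from HF fed dams and 0%, 1.48% and 2.94% in mice born from LF fed dams, and 8 of 10 mice of the first group lay above the highest of the second. The difference was 3.30 points (95% interval 1.88 to 4.72, p = 0.000122, permutation p = 9e-05). All 4 CpGs were higher, the first by 5.64 points (from 3.42% to 9.05%) and the fourth by 5.30 points (from 1.35% to 6.65%). In HF-fed mice the bin was at 2.73% and 3.95%, a difference of −1.21 points (p = 0.126), with an interaction p of 7.97e-05 and FDR of 0.524.

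Dnmt3b encodes a DNA methyltransferase that sets new methyl marks, and the bin at chr2:153502001-153503000 covers a coding exon and an intron of the gene. Its 6 listed cytosines, 2 of which are the strands of a single CpG, averaged 94.1%, 95.6% and 98.2% in mice born from HF fed dams and 88.9%, 92.5% and 94.8% in mice born from LF fed dams, 3.89 points higher (95% interval 2.16 to 5.62, p = 0.00017). The largest share came from the CpG at 153502626, at 91.6% and 81.9%, 9.72 points higher (p = 0.00227). In HF-fed mice the bin differed by −1.31 points.

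Cdh5 encodes VE-cadherin, the adhesion protein of endothelial junctions, and the middle CpG of the bin at chr8:106623001-106624000 lies 1842 bp upstream of the start. Its 3 CpGs averaged 29.01%, 33.6% and 35.2% in mice born from HF fed dams and 10.7%, 20.6% and 32.0% in mice born from LF fed dams, 10.7 points higher (95% interval 5.72 to 15.6, p = 0.000257). The 3 CpGs were higher by 18.4, 8.50 and 6.25 points. The spread was wider in mice born from LF fed dams (SD 7.02 against 2.43 points). In HF-fed mice the difference was −1.31 points (p = 0.649).

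Ptprj, a receptor tyrosine phosphatase, was the single one of the 12 bins named that was at p below 0.05 on both adult diets. The bin at chr2:90420001-90421000 holds 24 CpGs of the first coding exon and intron and was at 1.11%, 1.31% and 2.23% in mice born from HF fed dams and 0%, 0.478% and 1.37% in mice born from LF fed dams. The difference was 0.833 points (95% interval 0.462 to 1.20, p = 0.000173), and 15 of the 24 CpGs were higher, 1 of them at p below 0.05. In HF-fed mice the levels were 1.58% and 0.773%, 0.802 points higher (p = 0.0109, interaction p = 0.926). Of 1623 bins at p below 0.05 in LF-fed mice, 39 were at p below 0.05 with the same sign in HF-fed mice and 33 with the opposite sign. Of the 12 bins, Tmcc3 was the other with the same sign on both diets.

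Celf5, an RNA-binding protein gene, was at 72.0%, 76.9% and 82.2% against 65.5%, 68.9% and 76.1% over 3 coding exon CpGs, 6.57 points higher (p = 0.000257). The bin whose middle CpG lies 251 bp upstream of 5730559C18Rik was at 0%, 0.2% and 2.17% against 0.8%, 2.51% and 4.44%, a difference of −1.84 points (p = 0.000175). Among bins at unadjusted p below 0.05, the largest differences were at Ptgfrn (16.4 points), Anks1 (13.9 points) and Gm128 (13.4 points) on the higher side and Tmcc3 (−13.2), Bcas3 (−12.7) and Tbc1d16 (−12.1) on the lower side. At Tbc1d16 and Bcas3 levels were present in 7 and 9 of the 10 mice born from LF fed dams. At Ptgfrn the lowest mouse born from an LF fed dam was at 10%, and the group median was 67.5% against 74.5%. Levels of single CpGs were missing in some mice at Ptgfrn and Gm128, and with CpGs centred on their own mean before averaging, as was done for promoters, their differences were 7.37 (p = 0.0576) and 8.71 points (p = 0.00631).

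**Figure D4:**
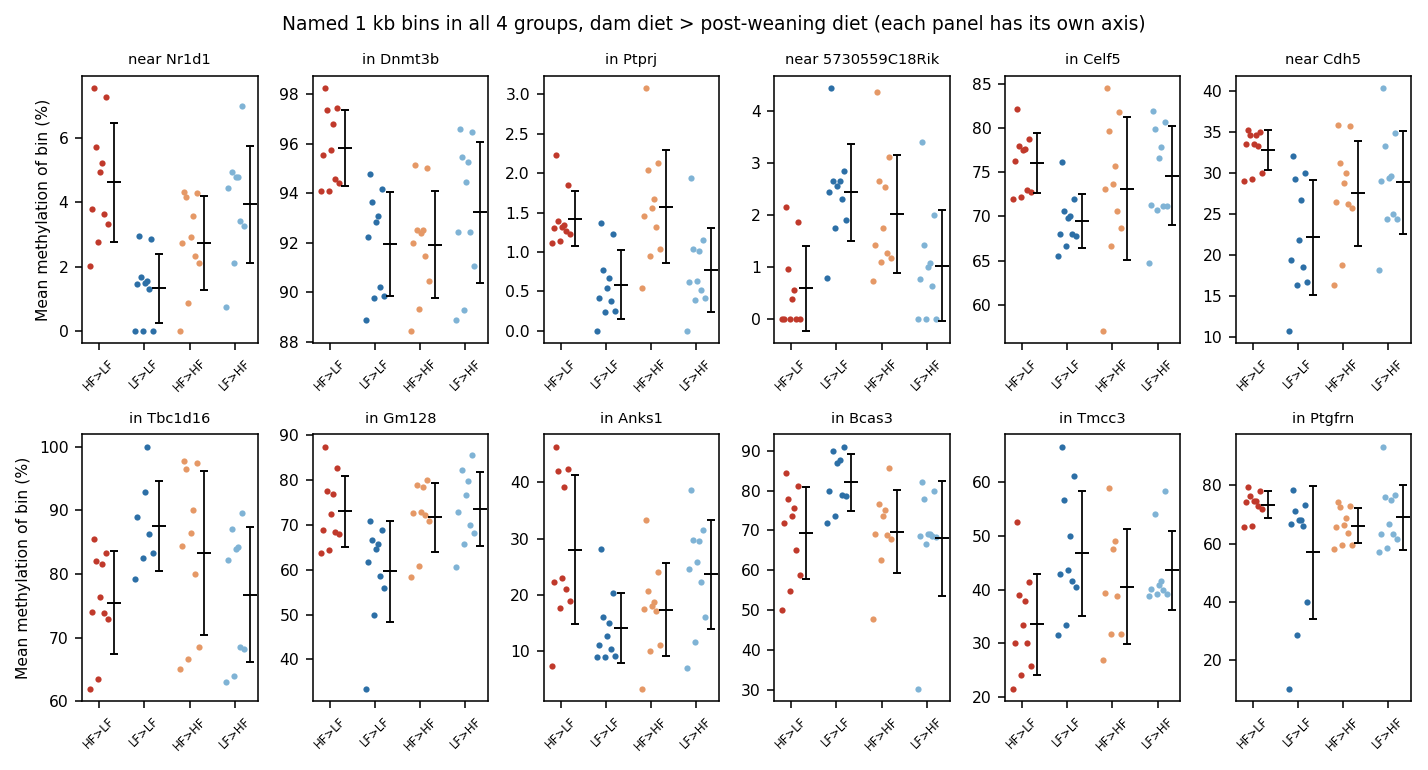
Mean methylation in percent of the 12 named 1 kb bins in each mouse with a level, by maternal and then adult diet; points are mice, bars are the mean and SD, and each panel has its own axis. The Ptprj bin is higher in mice born from HF fed dams on both adult diets, by 0.833 points in LF-fed and 0.802 points in HF-fed mice.

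Promoters ran from 1000 bp before a gene start to 500 bp after it and held at least 3 CpGs, and their differences were small. The smallest p-values were at Gm13067 (2.70% against 1.33%, 1.37 points higher), Ptprj (1.45% against 0.450%, 0.997 points higher), Pamr1 (2.38% against 4.40%, a difference of −2.02 points), Srbd1 (15.2% against 17.7%, −2.56 points) and Gm16880 (13.3% against 3.97%, 9.36 points higher). Each had an FDR of 0.917. Ptprj had an FDR of 0.024 without replicate 6 of the mice born from LF fed dams. With promoters taken as 250 bp either side of the start, Srbd1 differed by −0.657 points (p = 0.219) and Gm13067 by 2.72 points (p = 0.0142). In HF-fed mice 3 of the 5 had the same sign and 0 were at p below 0.05.

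Gene lists for liver metabolism and for methylation itself were read beside all genes. Over 18 lists, leaving out a list that the study chose by expression in these mice, 167 genes had a tested promoter, and 4 were higher and 5 lower at unadjusted p below 0.05 (5.39%, beside 5.0% of all promoters), with 0 at an FDR below 5%. Their median difference was −0.126 points, beside −0.000786 over all 9287 genes, and the 95% interval lay within 5 points of 0 for 152 of the 167 and for 8702 of all genes.

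Insulin signalling had 21 of 34 genes tested, with a median difference of −0.135 points and 20 intervals within 5 points. The growth factor receptor Igf1r was 0.477 points higher (1.84% against 1.36%, p = 0.0247), and no other was at p below 0.05. Cholesterol synthesis and uptake had 15 of 32 tested and a median of −0.168 points. Srebf2, the master regulator of cholesterol synthesis, was at 0.714%, 2.17% and 3.86% in mice born from HF fed dams and 0%, 1.19% and 1.87% in mice born from LF fed dams, 1.09 points higher (95% interval 0.316 to 1.86, p = 0.00841). In HF-fed mice its promoter differed by −0.815 points (p = 0.0323), with an interaction p of 0.000635 and FDR of 0.737.

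Fatty acid synthesis and oxidation had 18 of 33 genes tested, each with an interval within 5 points and a median of −0.163 points. Fads2, the delta-6 desaturase, was at 1.93% against 2.99%, a difference of −1.05 points (p = 0.0403), and differed by −1.23 points in HF-fed mice (p = 0.107). Within 250 bp of the start the differences were −2.52 points at Fads2 (p = 0.0614) and 0.902 points at Igf1r (p = 0.102). Gluconeogenesis (9 of 22 tested), the clock (11 of 20), nuclear receptors (13 of 33), hepatocyte transcription factors (12 of 17), acute phase genes (9 of 33), methyl donor metabolism (13 of 23), bile acid genes (3 of 18) and xenobiotic response (3 of 20) had 0 promoters at p below 0.05, and their medians ran from −0.342 to 0.146 points.

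Further lists held single promoters at unadjusted p below 0.05, which 5.0% of all promoters met. The antioxidant enzyme Prdx1 was 0.585 points higher (p = 0.0407; 6 of 28 oxidative stress genes tested). Dnmt1, the methyltransferase that copies methylation at cell division, differed by −0.590 points (1.598% against 2.19%, p = 0.0411; 11 of 23 methylation genes tested). The testis tubulin gene Tuba3b was at 97.7% against 99.2% (p = 0.0193; 7 of 23 germline genes tested, median level 91.5%). In the list chosen by expression in these mice, which is not independent of them, 15 of 71 genes were tested and Creld2, an endoplasmic reticulum stress protein, differed by −0.676 points (p = 0.00901; −1.26 points within 250 bp of the start).

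Imprinted genes had mostly intermediate levels and wide intervals. The 12 tested promoters of 33 genes had levels from 0.918 to 72.1% with a median of 45.8%, and their median difference was −0.573 points with 4 intervals within 5 points. Mkrn3, a paternally expressed gene of the Prader-Willi region, was at 12.9%, 18.3% and 21.8% in mice born from HF fed dams and 17.9%, 22.8% and 41.7% in mice born from LF fed dams, a difference of −7.31 points (95% interval −12.8 to −1.87, p = 0.0112). In HF-fed mice Mkrn3 differed by 0.294 points (p = 0.936). Zdbf2, also paternally expressed, was at 2.70% against 4.13%, a difference of −1.43 points (p = 0.02), and differed by −1.15 points in HF-fed mice (p = 0.075).

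**Figure D5:**
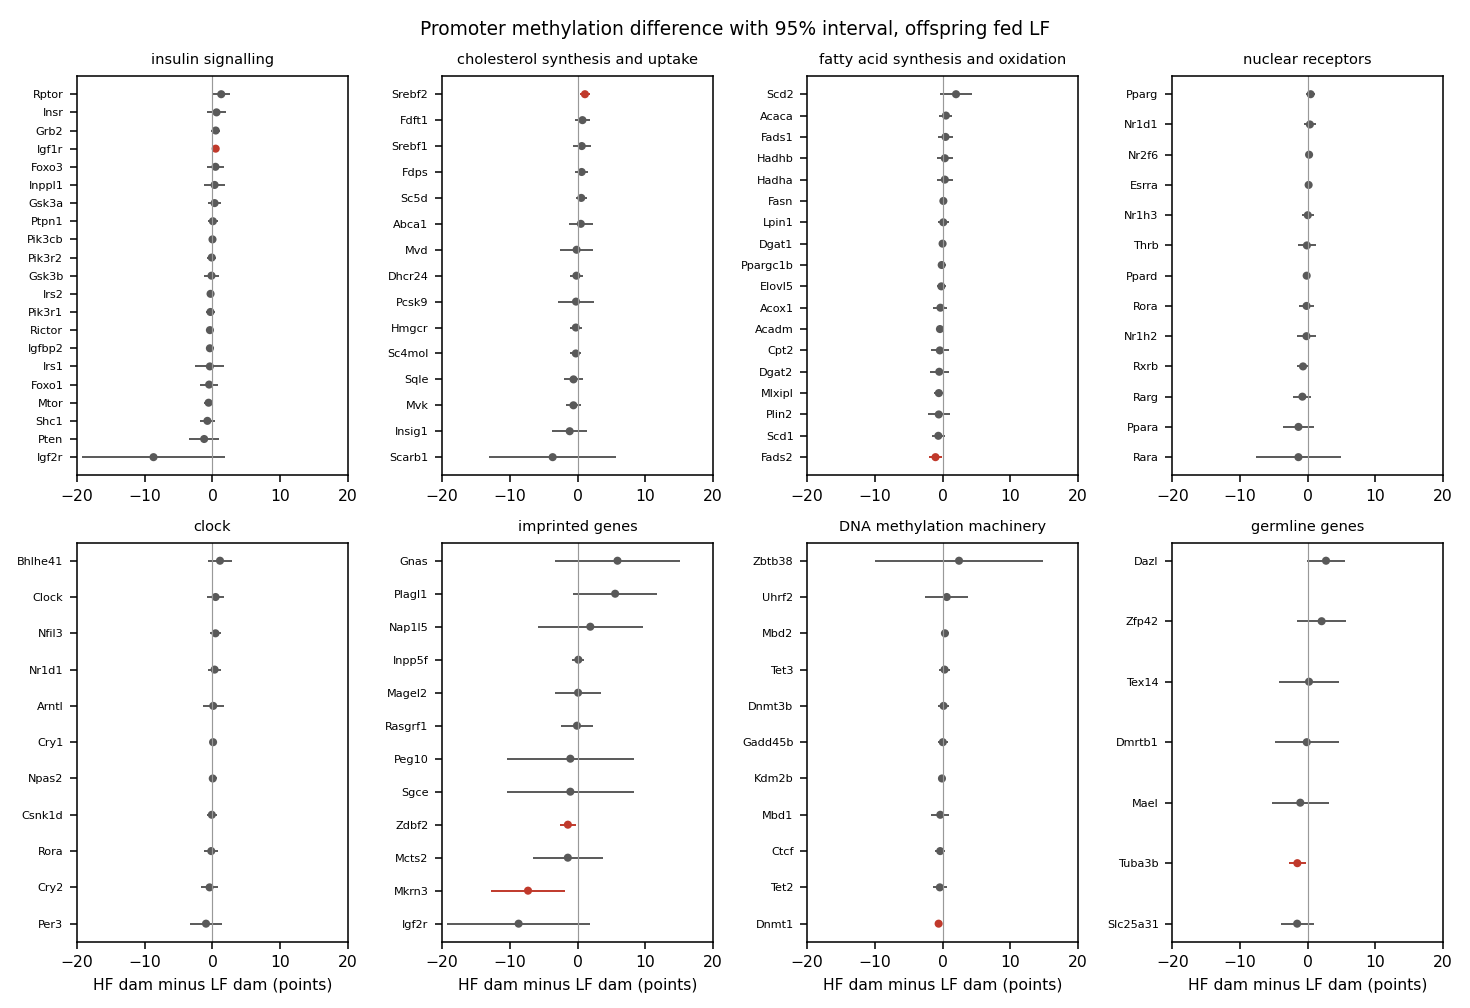
Difference in promoter methylation in percentage points, born from HF fed dams minus born from LF fed dams, both fed LF, for the tested genes of 8 of the lists. Points are genes, lines are 95% intervals and red marks unadjusted p below 0.05; most lines are short and cross 0, and those of imprinted genes are longer, with 4 of 12 within 5 points.

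A stretch of chromosome 17 that holds a copy of ribosomal DNA, at chr17:39979959-39985744, held 399 of the CpGs covered in all mice at a median of 1400 reads. Its level was 16.5%, 21.8% and 26.2% in mice born from HF fed dams and 9.93%, 18.2% and 22.3% in mice born from LF fed dams. The means of 21.1% ± 3.0 and 18.1% ± 3.79 differed by 3.04 points with overlapping groups (permutation p = 0.0587), and in HF-fed mice the difference was −0.0668 points (permutation p = 0.968). Reads from the many ribosomal DNA copies can map to this single one, so its CpGs are not separate loci. Without it, the difference in mean level per mouse was 0.171 points over all CpGs (permutation p = 0.0271) and 0.407 points between genes (permutation p = 0.0105).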

How the data were processed

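The labels put 20 male C57BL/6 mice (C57BL/6J in the methods) in the 2 maternal groups fed LF. Per the labels and the study's methods, liver DNA was cut with MspI, bisulfite converted and sequenced, and reads were aligned with Bismark (version not given in the sources used here) to mm9. The authors deposited counts of methylated and of all reads per CpG in each mouse, already limited to at least 10 reads, and a fraction table that equals their ratio. Levels here are methylated counts over total counts, in percent.

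CpGs with a level in at least 36 of 40 mice were tested by Student's t-test (two-tailed) with Benjamini-Hochberg adjustment, as were the mean of each mouse over 1000 bp bins and over promoters (1000 bp upstream to 500 bp downstream of a start), each with at least 3 CpGs; promoter means were taken over CpGs centred on their own mean, since missing levels shift a plain mean. Genes came from an mm9 annotation. Values per mouse were tested by permutation (100000 resamples, smallest p 1e-05; exact below 10 mice). Tools were Python 3.11.15, scipy 1.17.1 and limma 3.58.1, and the tests were tested on simulated data. Of 200 CpGs with a simulated difference of 30 points, Student's t-test recovered 80 at an FDR below 5%, with 3 false calls. Welch's test recovered 57, the quasi-binomial model 81, limma 90, the exact Wilcoxon test 0 and the interaction test 13. Single CpGs with a difference of this size can thus be missed. Named CpGs, among those with a level in all 20 mice, were the 8 with the smallest p, the 4 largest differences each way at p below 0.05, and those with groups apart; named bins were the 6 smallest p and the 3 largest each way at p below 0.05; named promoters were the 5 smallest p and, of up to 3 with the smallest p per list, those at p below 0.05. Members and lists were chosen with earlier results of these data known. Intervals and read limits cover counting error only where they rest on reads. Some items counted in the lists are not reported here. Alternatives are given in the closing section.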

Additional observations from a re-analysis of the deposited data

Results flagged for a closer look

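The maternal difference in mean level differed between the adult diets in 5 sets of CpGs, by a permutation test of the interaction: by −0.428 points over all CpGs, −0.917 at levels of 10 to 90%, −0.386 in exons, −0.543 in introns and −0.807 between genes. The first of these lost its call with each mouse's own CpGs (0.0169, permutation p = 0.973), with the reads of the shared CpGs pooled (−1.16, p = 0.528) and with 20 or more reads throughout (−2.14, p = 0.115). One HF-fed mouse born from an HF fed dam was low, at 38.4% over all CpGs; without it (replicate 2) the interaction was −0.327 (permutation p = 0.00986).

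Among 96 groups of 10 mice behind the named values, 6 held a mouse whose gap to the next, as a share of the group's range, passed the 95% critical value of Dixon's test; chance gives about 1 in 20 groups. The share was 0.5 at the Bag3 CpG in mice born from HF fed dams (lowest 90.9%, next 95.5%) and 0.475 in mice born from LF fed dams (85.7%, next 90%). It was 0.523 at the Popdc2 CpG in mice born from LF fed dams (95.2%, next 97.7%) and 0.51 at the Gtf2f1 CpG in the same group (78.6%, next 86.7%). At the Zbtb10 CpG it was 0.534 in mice born from HF fed dams (5.88%, next 36.6%). At the Ptprj promoter it was 0.494 in mice born from LF fed dams, for 1 high mouse at 2.07% (next 0.893%).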

How the results depend on the processing

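Counts of CpGs, bins and promoters at an FDR below 5% stayed at 0 under most alternatives. For CpGs the count was 1 (Pik3r1) with CpGs covered in all 40 mice alone and 1 with CpGs of mean level 5 to 95%, where fewer CpGs were tested. Leaving out each mouse in turn gave 0 to 1 CpGs, 0 to 0 bins and 0 to 1 promoters (Ptprj). With at least 20 reads, 0 of 1225 CpGs had groups apart. The Pik3r1 CpG is not among these, since its lowest depth was 13 reads, so its groups were not compared at that depth. The difference in mean level, 0.204 points, reversed to −0.272 when each mouse used its own CpGs. It reversed to −0.807 for all methylated reads over all reads at the shared CpGs. It was 1.61 over 853 CpGs with 20 or more reads throughout (permutation p = 0.1005), and 0.252 over the 461 of them outside the ribosomal stretch (permutation p = 0.683). The cause of the reversals was not tested. The interaction of the mean level with adult diet, −0.428, was 0.0169 (permutation p = 0.973), −1.16 (p = 0.528), −2.14 (p = 0.115) and −1.03 (p = 0.309) in the same order, and −0.459 with depth as a covariate. Leaving out each mouse gave 0.172 to 0.234 for the mean, −0.470 to −0.327 for its interaction and 0.449 to 0.575 between genes, all at permutation p below 0.05.

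No paired analysis was possible because the groups share no animals and replicate numbers only count mice within a group. Leaving out the ribosomal stretch, adjusting mean levels for depth, the alternatives of the interaction and leaving out mice for intergenic CpGs were chosen after seeing the data. Averaging mice of consecutive numbers (5 and 4 runs) gave 0.197 (exact permutation p = 0.0318). Depth, a median of 13 to 38 reads per CpG in the LF-fed mice, limits the precision of single CpGs.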
